A study of Mus musculus with 18 samples.

Results

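The azurophil granule genes of promyelocytes were followed in the mouse spleen through 6 genes, Mpo, Elane, Prtn3, Ctsg, Ms4a3 and Prss57, taken by name from the 55385 genes of the deposited table. All 6 were present under 1 identifier each, and all 6 passed the filter on low counts. Poly-A RNA was sequenced from whole spleens in 18 libraries, taken here as 18 separate mice, which the series describes as adult. Of these, 6 were wild-type C57BL/6J (WT), 6 were Dp16, a Down syndrome model that carries an extra copy of a long chromosome 16 interval, and 6 were Dp16_2xIFNRs, the same duplication with the interferon receptor genes of that interval brought back to 2 copies. Each genotype held 3 males and 3 females, none with a recorded treatment. The age label ran from 17.1 to 18 under a tag of days after conception, which an adult mouse cannot have, so its unit was not interpreted. The background strain is given for the wild-type mice only.

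Azurophil granules are the first granules a neutrophil makes, and their proteins are transcribed mainly at the promyelocyte stage. The genes are switched off before the cell matures, so their mRNA marks immature myeloid cells rather than circulating neutrophils, which carry the finished proteins. In the adult mouse most granulocyte production takes place in bone marrow, and the spleen's red pulp holds a smaller, variable amount of blood formation outside the marrow. Mpo encodes myeloperoxidase, the haem enzyme that makes hypochlorous acid from hydrogen peroxide. Elane, Prtn3, Ctsg and Prss57 encode the granule serine proteases neutrophil elastase, proteinase 3, cathepsin G and neutrophil serine protease 4. Ms4a3 differs from the other five in that it encodes a membrane protein of committed granulocyte and monocyte progenitors, not granule content.

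Between 33998427 and 53021480 reads were counted per library, and Xist and Y chromosome genes gave the labelled sex in 18 of 18 libraries. All 8 markers of spleen stroma, red pulp, B cells and T cells looked for were present. In 4 libraries (WT replicate 4, Dp16 replicates 2 and 3, and Dp16_2xIFNRs replicate 5) the transcript Gm42418, which overlaps ribosomal RNA sequence, took more than 4% of the reads. Over all 18 its share was 0.691% to 5.51%. Counts without these 4 libraries are given beside the main member calls and most of the list counts that they change.

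None of the members lies on chromosome 16, so none is part of the extra interval (0 of 6). In GRCm38, Elane lies on the plus strand of chromosome 10 at 79886247-79888215 (ENSMUSG00000020125.7) and Prtn3 ends 3072 bases upstream of it, at 79874476-79883174 on the same strand (ENSMUSG00000057729.12). Prss57 (ENSMUSG00000020323.14) is found 83.5 kb before Prtn3, at 79781474-79790961 on the minus strand. Mpo (ENSMUSG00000009350.13) is on chromosome 11 at 87793581-87804413, plus strand, with 14 exons in its first annotated transcript, against 5 in each protease gene. Ctsg (ENSMUSG00000040314.2) is on chromosome 14 at 56099881-56102574, and Ms4a3 (ENSMUSG00000024681.11), with 7 exons, is on chromosome 19 at 11629496-11640851, both on the minus strand. Genes on the opposite strand overlap 3 members: Gm11505 overlaps Mpo by 5361 bases, Plppr3 overlaps Prtn3 by 159 bases and Fstl3 overlaps Prss57 by 1157 bases. The library kit keeps strand, but whether the counting used strand is not given in the sources used here. How reads over those bases were assigned is therefore not known.

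The starts of 5 members, which rose together as described below, are shown for the letters they share; RefSeq windows (GRCm38.p6) of 250 bases before to 50 after the start were matched for all members but Prss57. Each was searched on both strands for GAGGAA (PU.1), TAACNG (MYB), TGTGGT (RUNX) and TTNNGNAA (C/EBP), 4 factors known from granulocyte gene regulation. The stretches below run 5′ to 3′ on the gene's strand, from up to 20 bases before the first match to up to 40 after the last, within the part that the annotation leaves free of exons. Capitals mark matches, and no 2 of the matches overlap.
Mpo, chr11:87793534-87793580, plus strand: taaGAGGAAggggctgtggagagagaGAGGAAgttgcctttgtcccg
Elane, chr10:79886207-79886246, plus strand: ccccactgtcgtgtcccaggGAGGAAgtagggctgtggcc
Prtn3, chr10:79879552-79879613, plus strand: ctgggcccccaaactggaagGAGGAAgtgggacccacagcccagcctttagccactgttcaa
Ctsg, chr14:56102608-56102810, minus strand: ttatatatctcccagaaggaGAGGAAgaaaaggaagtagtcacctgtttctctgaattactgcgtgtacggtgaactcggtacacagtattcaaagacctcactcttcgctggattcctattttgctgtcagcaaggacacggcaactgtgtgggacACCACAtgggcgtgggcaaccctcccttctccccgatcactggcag
Ms4a3, chr19:11640863-11640930, minus strand: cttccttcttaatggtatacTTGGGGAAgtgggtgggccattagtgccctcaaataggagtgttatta
The PU.1 letters were found in 5 of the 5 windows, in Ms4a3 only after the start and so outside the stretch shown, against 28.3% of all windows of this length. The capitals of Mpo, Elane and Prtn3 are all PU.1 matches. Ctsg also held the RUNX letters, read here on the opposite strand as ACCACA, which occur in 16.8% of windows. The Ms4a3 capitals are a C/EBP match (40.7% of windows), with another after its start. MYB letters lay in the windows of Mpo and Elane, outside the stretches shown, against 23.3% of windows. The Prtn3 stretch lies inside the longer gene span of the annotation, because RefSeq places that start further downstream. These matches are letters in a window and are not measured binding sites.

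Levels of different genes are compared here per kilobase of gene model, as the deposited RPKM (reads per kilobase of gene model, scaled to library size). In WT spleens the mean was 31.3 ± 21.8 RPKM (SD, n = 6) for Elane, 23.8 ± 18.1 for Mpo, 23.1 ± 16.8 for Prtn3, 7.77 ± 5.45 for Ctsg, 3.79 ± 3.01 for Ms4a3 and 0.633 ± 0.480 for Prss57. The SDs were large, and a mouse high in 1 member was high in the others, so that the order within a mouse barely varied. Elane was above its next neighbour, Prtn3 was above Ctsg, Ctsg above Ms4a3 and Ms4a3 above Prss57 in 6 of 6 WT libraries. Only Mpo and Prtn3 could not be ordered in WT, with a Mpo to Prtn3 ratio of 0.998 ± 0.102 and Mpo the higher in 4 of 6 libraries.

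In the duplicated genotypes Prtn3 stood above Mpo in every library, 6 of 6 in Dp16 and 6 of 6 in Dp16_2xIFNRs, and the rest of the order was as in WT. The within-library ratio of Prtn3 to Mpo RPKM was 1.01 ± 0.112 in WT, 1.21 ± 0.136 in Dp16 and 1.34 ± 0.217 in Dp16_2xIFNRs. These ranges overlapped, and no test was made of the ratio. Mean RPKM in Dp16 was 170 ± 82.2 for Elane, 151 ± 77.2 for Prtn3, 127 ± 68.2 for Mpo, 53.4 ± 26.9 for Ctsg, 27.2 ± 14.8 for Ms4a3 and 2.91 ± 1.38 for Prss57. In Dp16_2xIFNRs it was 143 ± 39.1, 125 ± 35.1, 94.6 ± 27.7, 41.3 ± 12.5, 21.3 ± 6.06 and 2.22 ± 0.662 in the same order of genes.

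Every member was higher in Dp16 than in WT spleen, by 5.29-fold to 8.33-fold, and in no member did a Dp16 library fall among the WT libraries. Values for single genes are given below as CPM, the counts of a gene per 1000000 counts of the library. Mpo was 18.8, 34.1 and 26.3 CPM in the 3 WT males and 126, 69.9 and 140 CPM in the 3 WT females. In Dp16 it was 217, 199 and 257 CPM in males and 436, 369 and 726 CPM in females. The lowest Dp16 library, a male, thus stood above the highest WT library, a female, although the 2 sexes were far apart in both genotypes. The fitted log2 fold change of Mpo was 2.69 ± 0.29 (SE; adjusted p = 2.14e-05, edgeR quasi-likelihood test with sex as a term, Benjamini-Hochberg over all genes), or 6.46-fold. In bulk tissue, more or fewer cells that express these genes and more or less of the RNA per cell cannot be told apart.

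Neutrophil elastase followed the same pattern. Elane was 10.4, 17.5 and 12.2 CPM in WT males and 54.2, 31.1 and 59.2 CPM in WT females. In Dp16 it was 87.7, 93.1 and 125 CPM in males and 188, 214 and 296 CPM in females. Again no library of the 2 genotypes overlapped, and Elane rose by 2.67 ± 0.23 (adjusted p = 2.67e-06, edgeR). Prtn3, its neighbour on the chromosome, ranged from 8.02 to 48.4 CPM (median 17.6) in WT and from 83.9 to 291 CPM (median 141) in Dp16, a log2 fold change of 2.96 ± 0.25 (adjusted p = 2.27e-06, edgeR).

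Ctsg, whose product has chymotrypsin-like activity, ranged from 1.77 to 15.0 CPM (median 6.52) in WT and from 27.8 to 102 CPM (median 50.5) in Dp16. Its log2 fold change was 3.03 ± 0.27 (adjusted p = 3.18e-06, edgeR). Ms4a3 ranged from 1.49 to 8.53 CPM (median 2.26) in WT and from 14.8 to 55.0 CPM (median 23.2) in Dp16. At 3.06 ± 0.26 (adjusted p = 1.91e-06, edgeR) it had the highest fitted log2 fold change of the members, and it is the only one of them that encodes no granule content. Prss57, the protease gene with the lowest level, ranged from 0.426 to 3.67 CPM (20 to 166 counts) in WT and from 5.04 to 14.6 CPM in Dp16. Its log2 fold change of 2.40 ± 0.28 (adjusted p = 7.36e-06, edgeR) was the smallest, and its 95% interval, 1.82 to 2.98, overlapped those of the other five.

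Read against the whole table, 6 of 6 members were called higher, where 16.6% of the 18634 tested genes were called higher. Every Dp16 library was above every WT library for 6 of 6 members and for 4.57% of all tested genes. The same held among females alone (6 of 6; 12.5%) and among males alone (6 of 6; 13.5%). The median log2 fold change was 2.82 over the members and -0.01 over all tested genes. The plot of CPM by library shows the gap between genotypes and the separate positions of the sexes within each.

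**Figure D1:**
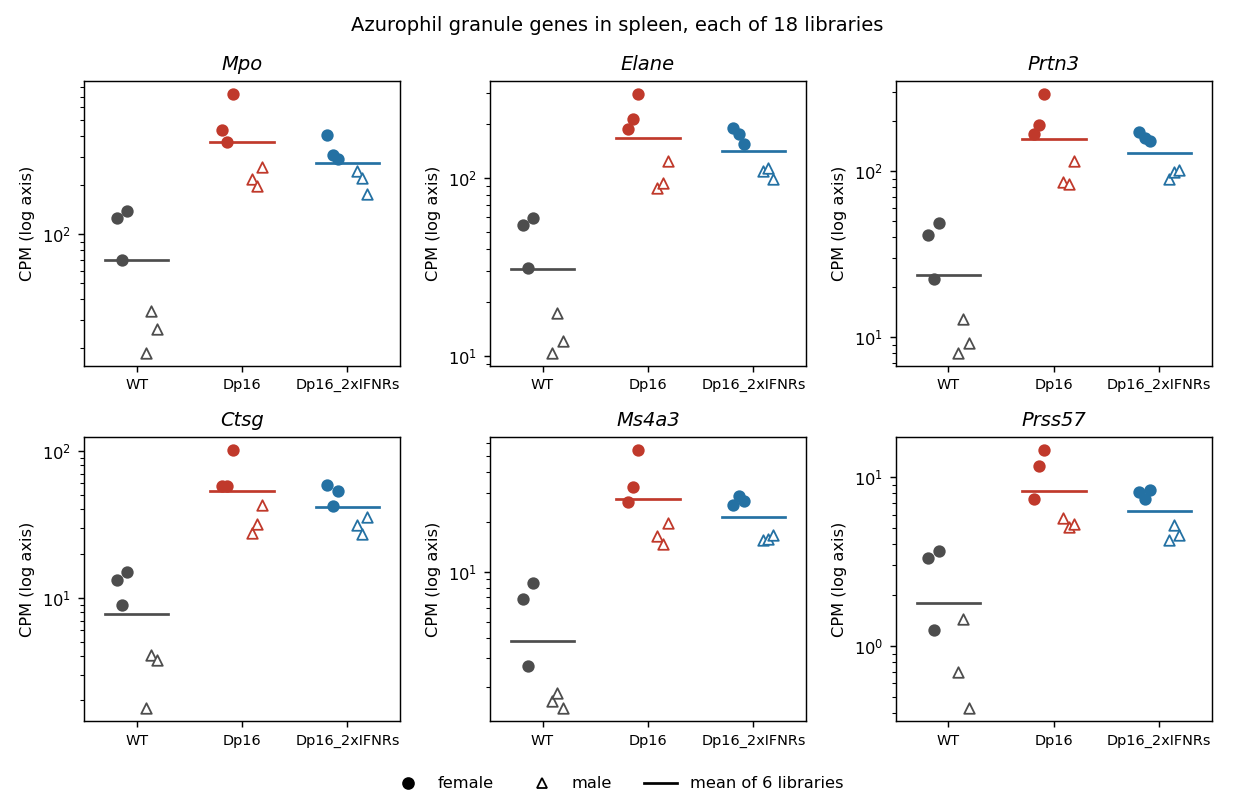
CPM on a log axis of each azurophil granule gene in every library, by genotype (WT grey, Dp16 red, Dp16_2xIFNRs blue), with females as filled circles, males as open triangles and the mean of 6 libraries as a bar. In all 6 panels every Dp16 and Dp16_2xIFNRs library lies above every WT library, as for Mpo (WT 18.8 to 140 CPM, Dp16 199 to 726 CPM), and females lie above males of the same genotype except for Prss57 in WT.

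Spleens with the interferon receptor genes back at 2 copies were also higher than WT for all members. This comparison uses the same 6 WT libraries as the one with Dp16, so the 2 results are not independent. Mpo was 244, 223 and 176 CPM in Dp16_2xIFNRs males and 408, 307 and 291 CPM in females, 2.39 ± 0.29 above WT on the log2 scale (adjusted p = 4.88e-05, edgeR). Elane was 109, 114 and 99.0 CPM in males and 191, 176 and 155 CPM in females, with a log2 fold change of 2.53 ± 0.23 (adjusted p = 5.25e-06, edgeR). The lowest library of either gene was above the highest WT library. Prtn3 ranged from 89.1 to 172 CPM, Ctsg from 27.3 to 59.0 CPM, Ms4a3 from 15.7 to 28.8 CPM and Prss57 from 4.22 to 8.39 CPM. Their log2 fold changes were 2.78, 2.74, 2.79 and 2.07, with adjusted p-values between 4.32e-06 and 3.45e-05 (edgeR). All members were called higher (6 of 6; 17.3% of tested genes), and their libraries did not overlap WT for 6 of 6 (4.49% of tested genes; 10.8% among females and 13.6% among males, with 6 of 6 members in each).

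Set directly against Dp16, the Dp16_2xIFNRs spleens had a lower fitted value for each member, and none of the differences was called. The log2 difference was -0.30 ± 0.27 for Mpo, -0.15 ± 0.22 for Elane, -0.18 ± 0.23 for Prtn3, -0.29 ± 0.25 for Ctsg, -0.26 ± 0.24 for Ms4a3 and -0.34 ± 0.26 for Prss57. In edgeR 0 of 6 were called (adjusted p = 1 for each) and 0 of 6 had an unadjusted p below 0.05. DESeq2 and limma-voom also called 0. The libraries of the 2 genotypes overlapped for all members, and only 0.0215% of tested genes were called in this comparison. The 95% interval for Mpo ran from 0.545-fold to 1.21-fold of the Dp16 level and that for Elane from 0.656-fold to 1.24-fold, so these mice leave room for a fall of Mpo by 0.88 on the log2 scale as well as for a small rise. The highest single library of all, Dp16 replicate 5 with Mpo at 726 CPM, is in the Dp16 group. In females alone the fitted differences were all below 0, from -0.60 to -0.42, and no tested gene was called. The largest was that of Mpo (-0.60, unadjusted p = 0.0418, edgeR). In males alone they ran from -0.20 to 0.07, with 2 of 6 above 0, Elane (0.074) and Prtn3 (0.028).

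**Figure D2:**
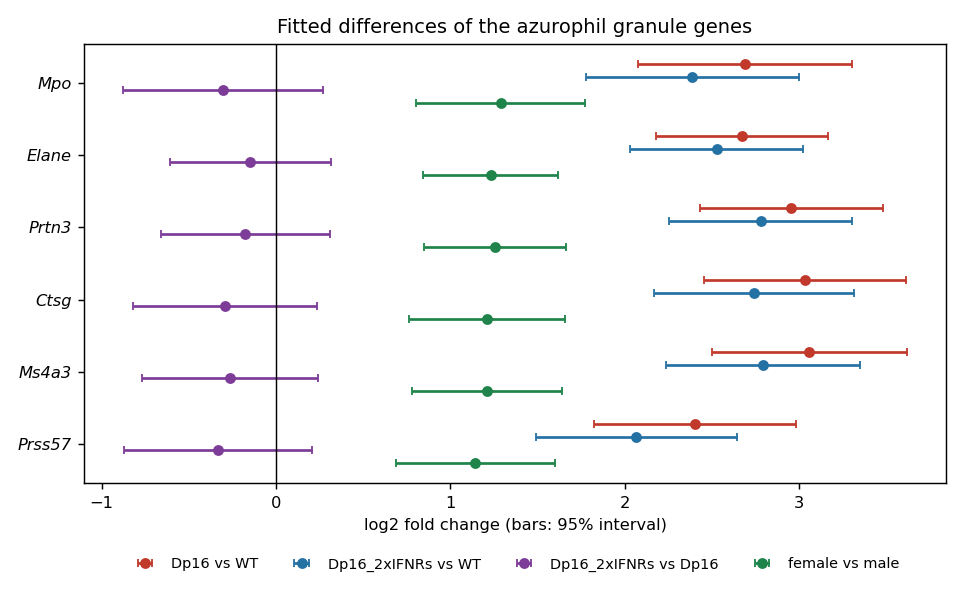
Fitted log2 fold changes of the 6 genes with 95% intervals for Dp16 against WT, Dp16_2xIFNRs against WT, Dp16_2xIFNRs against Dp16, and females against males over all genotypes. Both comparisons with WT lie between 2.07 and 3.06, the comparison between the duplicated genotypes spans 0 for every gene, and the female to male differences lie between 1.14 and 1.29.

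Females had more of every member than males. Over the 3 genotypes the log2 difference was 1.29 ± 0.23 for Mpo (adjusted p = 0.0257), 1.23 ± 0.18 for Elane (adjusted p = 0.00705), 1.26 ± 0.19 for Prtn3 (adjusted p = 0.00837), 1.21 ± 0.21 for Ctsg (adjusted p = 0.0220), 1.21 ± 0.20 for Ms4a3 (adjusted p = 0.0149) and 1.14 ± 0.22 for Prss57 (adjusted p = 0.0242), all from the edgeR fit with genotype as a term. In fold terms females stood 2.21 to 2.44 times above males. This call depends on the libraries and the fit: without the 4 libraries rich in Gm42418, 0 of 6 were called, with log2 differences of 1.26 to 1.35 and adjusted p-values of 0.187 to 0.339. With the sample number as a block, 0 of 6 were called as well, at adjusted p-values of 0.0679 to 0.170. Leaving out Dp16 replicate 2 or Dp16 replicate 4, both male, left 2 members called in each case, Elane and Prtn3. Some samples share a code of unknown meaning in their descriptions, always with samples of the same sex. The sex difference therefore cannot be fully told apart from whatever that code stands for.

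Few genes differed by sex at all in these spleens. Females were higher in 38 of 18634 genes, or 0.204% of those tested, and the 6 members were among them. Without the 4 Gm42418-rich libraries 5 genes were called higher in females, and with the sample number as a block 8, in both cases with none of the members. Of the 38, 5 were on the X chromosome and 33 were autosomal, so 27 autosomal genes other than the members were called. Several of these encode granule or calcium-binding proteins of later neutrophil stages, among them Fcnb (1.15), Cd177 (0.97), Ngp (1.17), Lcn2 (1.09), Camp (1.12), Ltf (1.13), S100a8 (0.93) and S100a9 (0.88), given as female minus male log2 values. Sex-linked genes made up most of the genes called lower in females, 6 of 10 being on the Y chromosome.

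Within each genotype the sexes were set apart in the same direction. In WT the female mean of Mpo was 112 ± 37.1 CPM (SD, n = 3) and the male mean 26.4 ± 7.65 CPM, a ratio of 4.24. In Dp16 the means were 510 ± 190 and 225 ± 29.8 CPM, a ratio of 2.27, and in Dp16_2xIFNRs 335 ± 63.4 and 214 ± 34.6 CPM, a ratio of 1.56. Over the 6 members the ratio of mean CPM was 3.20 to 4.24 in WT, 2.10 to 2.29 in Dp16 and 1.56 to 1.72 in Dp16_2xIFNRs. Every female was above every male for 5 of 6 members in WT (7.37% of tested genes), where Prss57 overlapped with a female at 1.25 CPM and a male at 1.45 CPM. The same separation held for 6 of 6 in Dp16 (5.22%) and 6 of 6 in Dp16_2xIFNRs (3.79%).

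A fit with a separate mean for each genotype and sex called 5 of 6 members higher in females than in males of WT (0.113% of tested genes), all but Prss57 (log2 1.71, adjusted p = 0.141). In Dp16 it called 0 of 6 (0.0107% of tested genes), with log2 differences of 1.06 to 1.18. There 6 of 6 had an unadjusted p below 0.05, at ranks 8 to 204 by p among the 18634 tested genes. In Dp16_2xIFNRs it called 0 of 6 (0.0107%), with differences of 0.63 to 0.77 and again 6 of 6 at an unadjusted p below 0.05 (ranks 63 to 422). The point estimates were smaller from WT to Dp16 to Dp16_2xIFNRs for 6 of 6 members, which the plot of sex differences by genotype shows with its wide intervals. From Dp16 to Dp16_2xIFNRs the sex difference changed by -0.53 to -0.29. No tested gene was called there, and 0 of 6 members had an unadjusted p below 0.05. The members vary together, and the share of all tested genes with this order was not counted.

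**Figure D3:**
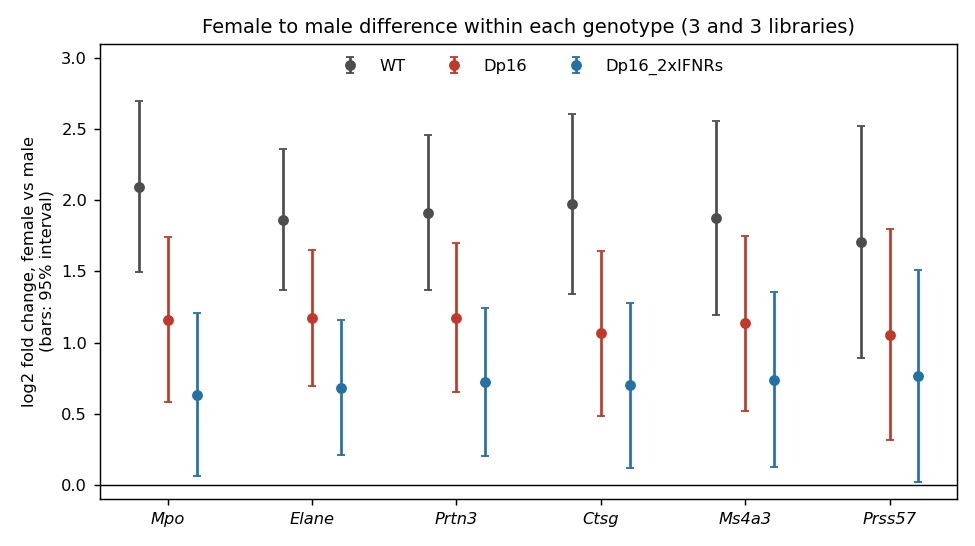
Fitted female minus male log2 difference of each gene within each genotype, from 3 females and 3 males, with 95% intervals. For Mpo the point is 2.10 in WT, 1.16 in Dp16 and 0.63 in Dp16_2xIFNRs, and the intervals of adjacent genotypes overlap.

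The same values read by sex give a larger genotype difference in males. In males the log2 fold change of Dp16 over WT was 2.78 to 3.56 (median 3.29; 6 of 6 called, 10.7% of tested genes), and in females it was 2.13 to 2.75 (median 2.50; 6 of 6 called, 5.29%). For Dp16_2xIFNRs over WT it was 2.58 to 3.43 in males (median 3.27; 6 of 6 called, 12.3%) and 1.64 to 2.27 in females (median 2.05; 6 of 6 called, 3.63%). For Mpo alone, Dp16 males were 9.30-fold above WT males and Dp16 females 4.85-fold above WT females. The difference between the sexes was tested as an interaction and was not called for any member (0 of 6 in both comparisons; 0% of tested genes). The interaction of Mpo was -0.94 ± 0.38 (females minus males; unadjusted p = 0.0270, adjusted p = 1.00, edgeR) for Dp16 and -1.46 ± 0.38 (unadjusted p = 0.00170, adjusted p = 1.00, edgeR) for Dp16_2xIFNRs. At an unadjusted p below 0.05 there were 3 of 6 members in the first and 5 of 6 in the second. Ranked by p among the 18634 tested genes, the members stood at 197 to 2813 in the first and at 10 to 1243 in the second. The members vary together, so these counts are not separate observations.

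The 3 libraries with the lowest age label, 17.1, also had high values. WT replicate 5 and Dp16 replicate 5, both female, were the highest of their genotype and sex for 6 of 6 members, and Dp16 replicate 6, a male, for 5 of 6. Each genotype and sex has only 3 libraries and the members vary together, so these counts are not 6 separate observations. A link between the age label and the members was not tested. With the age label as a term in the fit, all members were still called in both comparisons with WT.

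The 6 genes rose and fell together from mouse to mouse. Across the 18 libraries, the 15 pairs of members had Pearson correlations of log2 CPM between 0.955 and 0.998 (median 0.989), values that the genotype and sex differences above contribute to. After the mean of each genotype and sex was removed, the correlations were 0.467 to 0.962 (median 0.800). The highest of these was between the chromosome neighbours Elane and Prtn3 (0.962), followed by Prtn3 with Ms4a3 (0.909), which lie on different chromosomes. The lowest was between Ctsg and Prss57 (0.467), and Prss57 is also the member with the fewest counts. These values share libraries and depth and are given as descriptions.

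The genes outside the members whose log2 CPM was most like their mean over the 18 libraries were Ngp (r = 0.997), Fcnb (0.996), Lcn2 (0.994), Camp (0.993), Ltf (0.991), Cd177 (0.990), Chil1 (0.989) and S100a9 (0.988). With genotype and sex means removed they were S100a9 (0.965), Ngp (0.939), S100a8 (0.934), Lcn2 (0.926), Fcnb (0.918), Tuba8 (0.908), Map9 (0.882) and Camp (0.872). Of these, 5 are in both sets, namely Ngp, Fcnb, Lcn2, Camp and S100a9. Map9, a microtubule-associated protein gene, did not differ by genotype beyond its error (Dp16 against WT -0.36, adjusted p = 0.563, edgeR).

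Genes of other azurophil granule proteins had smaller differences than the members. In a list of 15 other granule components, most of them lysosomal enzymes that many spleen cells make, 14 were tested for Dp16 against WT and 5 were higher and 0 lower, with a median of 0.18. Lyz1, the lysozyme gene of gut and some myeloid cells, rose by 1.86 ± 0.19 (adjusted p = 5.33e-06, edgeR), from 21.2 ± 2.61 to 70.8 ± 21.9 CPM. Cd63, a granule membrane protein, rose by 0.54 ± 0.11, and Galns, a lysosomal sulfatase, rose by 0.37 ± 0.09. In Dp16_2xIFNRs 6 of the 14 were higher and 1 lower, and between the sexes 0 were called. On library totals without scaling factors the counts were 3 higher and 2 lower in Dp16, and 3 higher and 3 lower in Dp16_2xIFNRs. Without the 4 Gm42418-rich libraries those of Dp16_2xIFNRs were 4 higher and 1 lower.

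Genes that process and pack the granule proteins were mostly not called. The list of 12 had 3 higher and 2 lower in Dp16 (median 0.03). The counts were 0 higher and 3 lower on library totals, and 2 higher and 2 lower without the 4 Gm42418-rich libraries. Ctsc, whose product cathepsin C activates the granule serine proteases by removing a dipeptide, differed by 0.04 (adjusted p = 0.755, edgeR). Srgn, the proteoglycan core on which the proteases are stored, differed by 0.24 (adjusted p = 0.0552), and Serpinb1a, an inhibitor of elastase, proteinase 3 and cathepsin G, by 0.01 (adjusted p = 0.955). Calr, a chaperone of myeloperoxidase folding, rose by 0.31 ± 0.09, a call lost on library totals. Lyst and Vps13b, genes of granule and endosome membrane traffic, were lower by log2 values of -0.57 ± 0.12 and -0.46 ± 0.12.

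Among 15 regulators of the promyelocyte stage, Cebpe had the highest log2 fold change. It encodes the C/EBP factor of the step from promyelocyte to myelocyte, and it rose by 2.40 ± 0.24 in Dp16 (adjusted p = 2.09e-06, edgeR), from 3.23 ± 1.56 to 15.9 ± 9.86 CPM. In Dp16_2xIFNRs it was 13.2 ± 2.40 CPM (log2 fold change 2.27, adjusted p = 4.48e-06, edgeR), and its female minus male difference was 0.86 (adjusted p = 0.0576). Its correlation with the members' mean was 0.980 over the libraries and 0.797 with group means removed. Gfi1, a repressor needed for granulocyte fate, rose by 0.51 ± 0.12 in Dp16 (adjusted p = 0.00203) and had 0.29 in Dp16_2xIFNRs (adjusted p = 0.0603). Klf4, a monocyte factor, fell by 0.40 in Dp16 (adjusted p = 0.00950, edgeR).

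Of the other genes for factors whose letters were searched in the promoters, Myb and Cebpd were called higher and Cebpa, Cebpb, Spi1 and Runx1 were not called. Cebpd, a C/EBP gene of later granulocytes, rose by 0.50 (adjusted p = 0.0381, edgeR), a call lost under upper-quartile scaling and on library totals. Cebpa, the C/EBP gene that starts granulocyte commitment, differed by 0.02 (adjusted p = 0.931), and Spi1, which encodes PU.1, by 0.10 (adjusted p = 0.342, edgeR). Runx1, which lies in the extra interval, differed by 0.22 (adjusted p = 0.0830), and Myb by 0.32 (adjusted p = 0.0292), a call lost under upper-quartile scaling, on library totals and without the 4 Gm42418-rich libraries. Csf3r, the receptor for granulocyte colony-stimulating factor, differed by -0.01 (adjusted p = 0.977). In all, 4 regulators were higher and 4 lower in Dp16 (median 0.05), and 1 higher and 3 lower in Dp16_2xIFNRs. Those lower in Dp16 were Klf4, Cbfb (-0.26), Irf8 (-0.24) and Csf1r (-0.27). Without the 4 Gm42418-rich libraries all of these but Klf4 were no longer called. The Dp16 counts were 3 higher and 1 lower without the 4 Gm42418-rich libraries, and 2 higher and 4 lower with upper-quartile scaling and on library totals. Those of Dp16_2xIFNRs were 1 higher and 2 lower without these libraries, and 1 higher and 4 lower under both scalings.

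Earlier and later stages of the lineage moved in different ways. Of 11 stem and progenitor genes, 3 were lower in Dp16 (median -0.27), namely Sox4 (-0.83), Hlf (-1.17) and Flt3 (-0.27). Without the 4 Gm42418-rich libraries 1 was lower, Hlf (adjusted p = 0.0517, edgeR) and Flt3 (adjusted p = 0.109, edgeR) being no longer called. On library totals and with upper-quartile scaling 5 were lower. The specific granule genes, made at the next stages, had 13 of 14 higher and 0 lower in Dp16 (median 2.40) and the same counts in Dp16_2xIFNRs (median 2.16). Cd177 rose by 2.53 and Pglyrp1 by 1.35 in Dp16, and only Cybb, an oxidase subunit that other phagocytes also express, was not called (0.08). Between the sexes 7 of these 14 were higher in females and 0 lower (median 0.98), a count that went to 0 without the 4 Gm42418-rich libraries.

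Genes of mature neutrophils had 12 of 15 higher and 1 lower in Dp16 (median 1.24; 10 and 1 on library totals) and 2 of 15 higher in females (median 0.37), a count that was 0 without the 4 Gm42418-rich libraries. S100a8 rose by 2.48 and Padi4 by 1.65 in Dp16, and Cxcr2, the chemokine receptor of mature neutrophils, had -0.19 (adjusted p = 0.390, edgeR). The median log2 fold change in Dp16 was therefore 2.82 for the members, 2.40 for the specific granule list and 1.24 for the mature neutrophil list. These lists were described by their counts and medians, and the order of the medians was not tested.

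**Figure D4:**
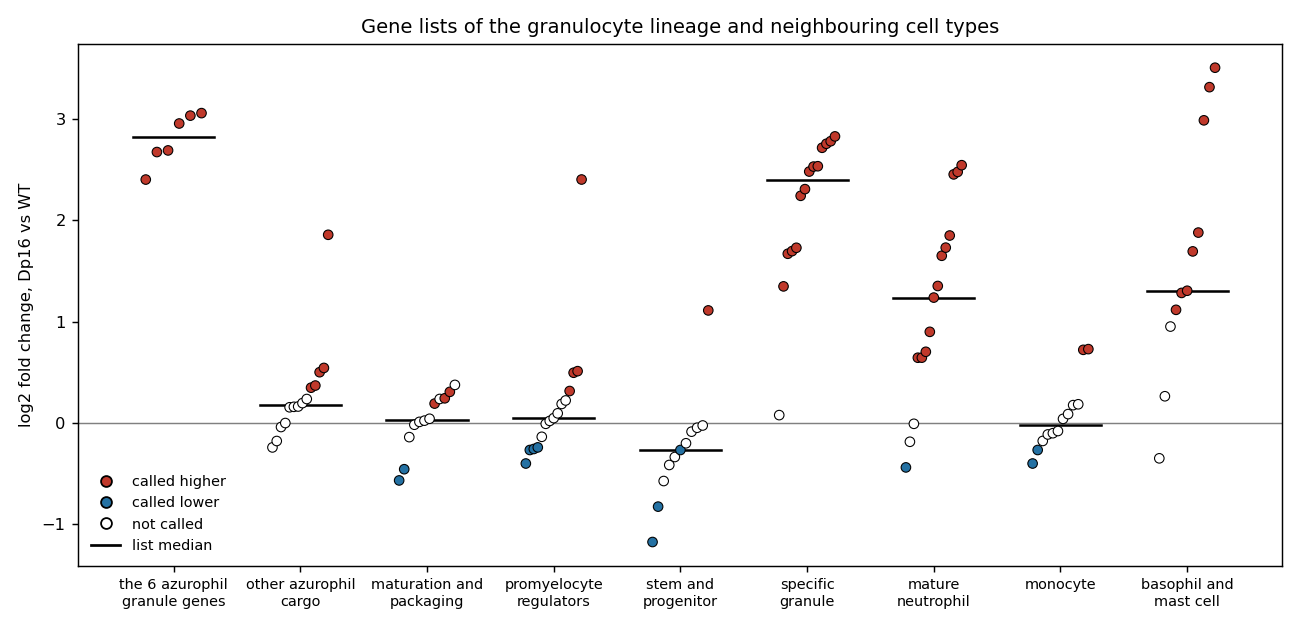
Log2 fold change of Dp16 against WT for each tested gene of 9 lists, with genes called higher in red, called lower in blue and not called in white, and the list median as a bar. The 6 azurophil granule genes (median 2.82) and the specific granule genes (median 2.40) lie high, while the other azurophil cargo (median 0.18), the packaging genes (0.03) and the regulators (0.05) have medians close to 0.

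Genes of some other cell types were also higher in Dp16 and those of others were lower. The part of these cell types in the members' difference was not tested. Summed CPM of the members was 41.4 to 275 in WT, 428 to 1484 in Dp16 and 433 to 863 in Dp16_2xIFNRs. Of 11 basophil and mast cell genes tested, 8 were higher and 0 lower in Dp16; the list's sum was 34.4 to 61.4 CPM in WT and 75.9 to 214 CPM in Dp16. Its basophil genes Prss34 and Fcer1a rose by 3.32 and 2.99. All 12 megakaryocyte and platelet genes (11 on library totals), all 16 erythroid genes and all 16 cell cycle genes were higher in Dp16. Without the 4 Gm42418-rich libraries 15 erythroid and 15 cell cycle genes were. The sums of these lists were 252 to 471, 6159 to 21329 and 932 to 2937 CPM in WT, and 412 to 1342, 22385 to 39990 and 2978 to 4065 CPM in Dp16. Gp9, a platelet adhesion receptor chain, rose by 1.23, the adult globin gene Hbb-bt by 1.66 and the replication gene Mcm3 by 0.84. B cell genes were lower for 10 of 10, with a sum of 3918 to 6050 CPM in WT and 2558 to 3186 CPM in Dp16, among them Fcmr (-0.89) and the complement receptor gene Cr2 (-0.77). Of 12 monocyte genes 2 were higher and 2 lower, with sums of 1091 to 1377 and 854 to 1212 CPM. Eosinophil genes had 6 of 10 higher and 1 lower, T cell genes 0 of 10 higher and 3 lower, and red pulp macrophage genes 2 of 9 higher and 0 lower. Without the 4 Gm42418-rich libraries monocyte genes had 2 higher and 1 lower, eosinophil genes 7 and 1, and T cell genes 0 and 2. No list had a gene at 0 in all 18 libraries.

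The likeness of these lists to the members within genotype and sex groups is given as a description, with no test. The median correlation with the members' mean, with group means removed, was 0.839 for the specific granule list and 0.585 for the megakaryocyte list. It was 0.506 for the red pulp macrophage list, 0.371 for the basophil and mast cell list, 0.316 for the mature neutrophil list, 0.313 for the eosinophil list and 0.234 for the monocyte list. Values below 0 were -0.05 for the erythroid list, -0.10 for the cell cycle list, -0.17 for the T cell list and -0.21 for the B cell list. Between the sexes 0 of 16 erythroid and 0 of 16 cell cycle genes were called, but 15 of 16 and 16 of 16 had higher fitted values in females (medians 0.42 and 0.38). In WT alone the median female minus male difference was 1.18 for the erythroid list and 0.95 for the cell cycle list, beside 1.89 for the members. Their part in the members' difference between the sexes was not tested.

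Genes beside the members on the chromosomes were looked at for a regional pattern, using 31 neighbours, 29 of which were tested. In Dp16 11 were higher and 1 lower (median 0.12), where 16.6% of all tested genes were called higher and 2462 of 18634 lower. The neighbours were picked by name, and a regional pattern was not tested. On library totals 7 were higher and 2 lower. Without the 4 Gm42418-rich libraries 10 were higher and 1 lower. Between Prss57 and Prtn3, Palm rose by 0.39 and Ptbp1 differed by 0.06 (adjusted p = 0.486, edgeR). Plppr3, which overlaps the Prtn3 span on the other strand, rose by 1.23 ± 0.16, from 2.68 ± 0.592 to 5.83 ± 1.05 CPM. Fstl3, which overlaps Prss57 in the same way, rose by 0.54. Cfd, the serine protease gene of complement factor D 2637 bases after Elane, had -1.41 (adjusted p = 0.328, edgeR), and Med16 beyond it had -0.10 (adjusted p = 0.526).

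Beside Mpo on chromosome 11, Lpo, the lactoperoxidase gene 2014 bases away, had -0.70 (adjusted p = 0.389, edgeR), and Epx, the eosinophil peroxidase gene, rose by 2.02. Next to Ctsg on chromosome 14 are further granule protease genes, of which the basophil gene Mcpt8 rose by 3.51 ± 0.44 and the mast cell gene Mcpt4 by 1.28, whereas the lymphocyte gene Gzmb had -0.04 (adjusted p = 0.901). Around Ms4a3 on chromosome 19, Ms4a2, an Fc receptor chain of basophils and mast cells, rose by 1.31 and Ms4a7, a macrophage gene, rose by 0.75. In the same cluster the B cell gene Ms4a1 was lower (-0.60, adjusted p = 3.10e-05, edgeR). Ms4a1, 363254 bases from Ms4a3, was the only one of the 29 tested neighbours called lower.

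**Figure D5:**
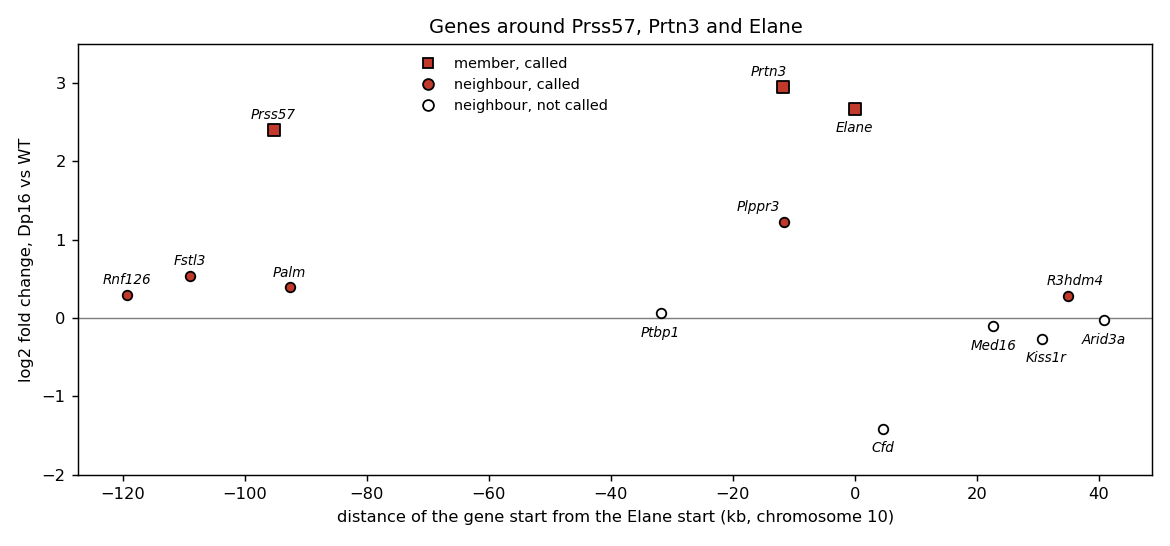
Log2 fold change of Dp16 against WT for the genes around Prss57, Prtn3 and Elane, plotted by the distance of each gene's start from the Elane start in kb. Squares are the 3 azurophil granule genes (2.40, 2.96 and 2.67), red circles neighbours that were called (0.29 to 1.23) and white circles neighbours that were not.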

How the data were processed

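Gene counts from 18 poly-A libraries were used as deposited, together with the authors' RPKM values of the same libraries. Among the tools in the submitters' processing notes are the aligner HISAT2 (2.1.0) and the counter HTSeq (0.6.1), with the build GRCm38; whether counting used strand is not given in the sources used here. In 11538 well-counted genes, the deposited RPKM were the counts divided by library total and a constant per gene.

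Counts were fitted with edgeR 4.0.16 (R 4.3.3): filterByExpr by genotype (18634 genes), TMM scaling, robust quasi-likelihood fit with genotype and sex, Benjamini-Hochberg over all tested genes, called below 0.05. A fit with 6 genotype and sex means gave the interactions and within-sex values. CPM are of library totals; correlations used log2 CPM with a prior count of 2. The fit was tested on simulated counts. DESeq2 1.42.0, limma 3.58.1, other scalings, filters, covariates and left-out libraries were alternatives. Positions and exons came from GENCODE vM21 (GRCm38), promoter windows from RefSeq.

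The members and gene lists were chosen with earlier results of these data known. Genes named from a list were drawn from the 3 with the smallest p in Dp16 against WT, with others where a sentence turns on them, and the 8 genes most like the members; further names were added after their values were seen. Libraries of a genotype differed beyond counting noise in all pairs (chi-square per degree of freedom 35.1 to 200), and are taken as separate mice; the labels do not say so, and p-values then measure only the spread between these samples. Samples with the same number did not deviate together (mean correlation 0.019 over 18 pairs, -0.004 over 90 others). Some samples of different genotypes share a code in their descriptions, whose meaning is not given. Samples that share a code are always of the same sex, so the code and sex cannot be fully told apart. The 7 pairs with the same code had a mean correlation of 0.053. With this code as a random block in limma-voom, the consensus correlation was 0.165. A protein comparison of the members was not made here. One result of the stem and progenitor list is not reported here.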

Additional observations from a re-analysis of the deposited data

How the results depend on the processing

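All members stayed called higher in both comparisons with WT under each of 38 alternatives, 18 of which left out 1 library; log2 values ran from 1.24 to 3.56 for Dp16 and from 1.00 to 3.43 for Dp16_2xIFNRs. Between the duplicated genotypes 0 were called under all 38, and in males alone Elane (0.074) and Prtn3 (0.029) changed sign. The female to male difference kept its sign under 34 alternatives (0.62 to 1.37) but not its calls: 0 of 6 with the replicate block, 0 of 6 without the 4 libraries over 4% Gm42418, and 2 to 6 with 1 library left out. The count was 2 without Dp16 replicate 2 and 2 without Dp16 replicate 4. Without WT replicates 1, 4 or 6 or Dp16 replicate 5, 1 or 2 members were lost. The labels do not say whether the sample numbers pair the mice, and samples with the same number did not deviate together. The replicate block changed no other member call. Most of the alternatives for the sex difference, and the list counts under other scalings, were added after seeing the data.

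Over all genes, Dp16 against WT called 5553 genes, 2520 in males only and 817 in females only; Dp16_2xIFNRs against WT called 5860, 3208 and 260; between the duplicated genotypes 4 became 0 in either sex alone. Females against males called 48 genes, 10 without the Gm42418-rich libraries, 16 with the replicate block, 29 with the description code as a block, 81 with limma-voom, 87 at an adjusted p below 0.1 and 142 with DESeq2; with 1 library left out it was 21 without Dp16 replicate 2, 22 without Dp16 replicate 4, 27 without WT replicate 4, 29 without WT replicate 6 and 81 without Dp16_2xIFNRs replicate 1. The interaction for Dp16 called 0, and 1 with DESeq2. The share of Dp16 calls that were higher was 55.7%, 43.4% with upper-quartile scaling, 35.6% on library totals and 36.1% on RPKM; library totals moved the median of all genes to -0.13. A count of 0 allows up to 0.0566 to 0.0882 CPM, for counting error only, well under every member value.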
